A study of Homo sapiens with 6 samples.

Results

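miR-146a, miR-146b and miR-155 are microRNAs (miRNAs) whose genes respond to NF-kB, the transcription factor of inflammatory signalling. Their 4 mature products hsa-miR-146a-5p, hsa-miR-146b-5p, hsa-miR-146b-3p and hsa-miR-155-5p were taken by name from the 2588 mature human miRNAs of the miRNA sequencing, and all 4 were found. The sequencing was performed in the human hepatoma line Huh7 at 48 h after Lipofectamine 2000 transfection with a plasmid carrying the circular RNA hsa_circ_0098181 (overexpression group, 3 samples) or with the control plasmid (control group, 3 samples). All samples therefore passed through a transfection, and no untransfected or cytokine-treated cells were analysed here. Nothing in the labels says whether the 3 samples of a group were separate cultures, so that p-values measure the spread between these samples, which may be technical. The study asked with these libraries which miRNAs might bind to the circular RNA.

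An miRNA is cut from a hairpin precursor into a product of the 5′ side (5p) and a product of the 3′ side (3p). Usually a single product of the pair is loaded onto an Argonaute protein and recognizes target mRNAs through bases 2 to 8, called the seed. Toll-like receptor and interleukin-1 signals activate NF-kB, which raises miR-146a. In turn, miR-146a represses IRAK1 and TRAF6, which pass on the signals of these same receptors, and thereby acts as a brake. miR-155 is released from the non-coding transcript of MIR155HG, is abundant in activated lymphocytes and macrophages, and represses among others SOCS1, an inhibitor of cytokine signalling.

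The mature sequences are shown because they decide which reads can be told apart. All 4 members were matched to RefSeq sequences (GRCh38.p14). They are given 5′ to 3′ with the seed in capitals, first those with a shared seed.
hsa-miR-146a-5p: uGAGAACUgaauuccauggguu
hsa-miR-146b-5p: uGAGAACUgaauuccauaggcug
hsa-miR-146b-3p: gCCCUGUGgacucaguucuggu
hsa-miR-155-5p: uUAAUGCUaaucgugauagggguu
hsa-miR-146a-3p, the other product of the miR-146a precursor, was read beside them: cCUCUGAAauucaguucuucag

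The 5p products of miR-146a and miR-146b are identical from base 1 to base 17 and in 20 of their 22 shared positions. Counted from the 5′ end of hsa-miR-146a-5p, the differences are G18A and U21C, and hsa-miR-146b-5p is longer by 1 base (23 against 22). A read that ends before base 18 could belong to either, and how such reads were assigned is not given in the sources used here. Compared position by position without gaps, the 3p products had 6 of 22 positions identical. Both hold the stretch ucaguucu, which lies 1 base later in hsa-miR-146b-3p, and this comparison does not count such shifted matches. hsa-miR-7153-5p was the only other miRNA in the RefSeq table with the seed of miR-146, and it had 0 counts in all samples. The RefSeq table held a sequence for 2281 of the 2588 miRNAs listed in the miRNA sequencing, of which 1366 were counted at least once. No other miRNA of that table shared a seed with hsa-miR-155-5p or hsa-miR-146b-3p.

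The members come from 3 unlinked genes. In GENCODE release 29 (GRCh38), MIR146A is annotated on chromosome 5, plus strand, from 160485352 to 160485450, inside exon 2 of both annotated transcripts of the long non-coding RNA MIR3142HG. MIR155 is on chromosome 21, plus strand, from 25573980 to 25574044, inside exon 4 of the long non-coding RNA MIR155HG. MIR146B is on chromosome 10, plus strand, from 102436512 to 102436584, where no other gene is annotated. The mature products are at 160485372 to 160485393 for hsa-miR-146a-5p, at 102436520 to 102436542 for hsa-miR-146b-5p, at 102436557 to 102436578 for hsa-miR-146b-3p and at 25573983 to 25574006 for hsa-miR-155-5p.

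The libraries held 7144798 to 10786295 counts each, with a median of 8379124. The hepatocyte markers miR-122-5p, miR-192-5p, miR-194-5p and miR-148a-3p were all abundant, with a summed level of 403377 to 435127 TPM (the count scaled to a common library total) over the 6 samples. The 7 markers of blood and immune cells were all counted in at least 1 sample, although at only 17.3 to 20.1 TPM in sum among the controls and 13.9 to 15.2 TPM among the overexpression samples, with 600 of their counts on miR-142-3p. The lower sum was that of miR-142-3p, with a mean of 9.23 TPM with hsa_circ_0098181 and 14.1 TPM with the control plasmid, while 4 of the 7 (miR-142-5p, miR-150-5p, miR-223-3p and miR-486-5p) had the higher mean with hsa_circ_0098181. The 4 fibroblast and muscle markers summed to 92.5 to 101 TPM in the controls and 83.3 to 90.1 TPM with hsa_circ_0098181. Most of this sum was miR-143-3p, with 4407 counts in all, against 186 for miR-145-5p, 90 for miR-1-3p and 3 for miR-133a-3p. The endothelial miR-126 products summed to 3811 to 4292 TPM in the controls and 4178 to 4341 TPM with hsa_circ_0098181. All samples were of the hepatoma line Huh7, so the marker names stand for miRNAs and not for cell types found in the samples. The source of these reads was not tested, nor was the part of these marker differences in the results below. Control replicate 3 stood apart from the other controls, with a median absolute log2 difference of 0.23 and 0.22 to control replicates 1 and 2 over 308 abundant miRNAs, against 0.077 between those 2. Between pairs of overexpression samples this difference was 0.10 to 0.14. The fold changes of the members and the ratios between products are therefore given with and without it.

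Among the members, hsa-miR-146a-5p was by far the most abundant and hsa-miR-155-5p was barely counted. The mean level over the 6 samples was 3924 TPM for hsa-miR-146a-5p, 30.2 TPM for hsa-miR-146b-5p, 0.480 TPM for hsa-miR-155-5p and 0.185 TPM for hsa-miR-146b-3p. All mature products are 22 to 24 bases long and TPM values here carry no length correction, so that these levels are reads and can also differ by how well each sequence was ligated and amplified. hsa-miR-146a-5p ranked 28 among all miRNAs by its mean level, where the hepatocyte miRNA miR-122-5p was 82.1-fold above it. hsa-miR-146b-5p ranked 218, and the mean of hsa-miR-146a-5p was 130-fold above it and 8180-fold above hsa-miR-155-5p. The ranges of hsa-miR-146a-5p (3425 to 4556 TPM) and hsa-miR-146b-5p (26.4 to 39.7 TPM) were far apart from each other and from the rest. The ranges of hsa-miR-155-5p (0.185 to 0.708 TPM) and hsa-miR-146b-3p (0.115 to 0.371 TPM) overlapped, and hsa-miR-155-5p was the higher of the pair in 5 of the 6 samples.

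**Figure D1:**
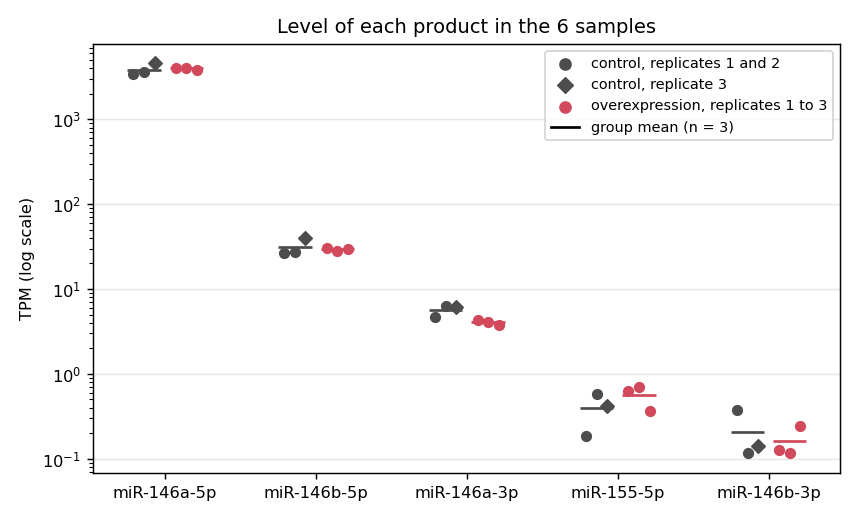
TPM on a log axis for the 4 members and for miR-146a-3p, with a point for each sample and a line for the group mean (n = 3). The miR-146a-5p points lie between 3425 and 4556 TPM, and those of miR-155-5p and miR-146b-3p all lie below 0.709 TPM and overlap.

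hsa-miR-146a-5p, the product that restrains IRAK1 and TRAF6, did not differ between the groups beyond the spread of the samples. The overexpression libraries 1 to 3 held 32457, 34393 and 32038 counts of it, and the control libraries 1 to 3 held 36944, 30993 and 32549. As TPM these were 4068, 4061 and 3865 with hsa_circ_0098181 and 3425, 3572 and 4556 with the control plasmid. The overexpression samples lay close together, control replicates 1 and 2 lay below all of them, and control replicate 3 lay above all of them. The mean was 3998 ± 115 TPM (SD, n = 3) with hsa_circ_0098181 and 3851 ± 615 TPM (SD, n = 3) with the control plasmid. The coefficient of variation was 2.88% among the overexpression samples and 16.0% among the controls, where counting error alone gives 0.520% to 0.569% per sample.

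After scaling by edgeR's TMM factors, which correct for library composition, the level of hsa-miR-146a-5p was 4083, 4412 and 3997 CPM (counts scaled to a common effective library total) with hsa_circ_0098181 and 3409, 3462 and 4188 CPM with the control plasmid, in the order of the replicates. The groups overlapped through control replicate 3 alone, as they did in TPM. edgeR's quasi-likelihood test gave a log2 fold change of 0.18 with a standard error of 0.093 (95% interval -0.024 to 0.38), with an unadjusted p of 0.0802 and a Benjamini-Hochberg adjusted p of 0.568 over all miRNAs. At an adjusted p under 0.05 edgeR called 0 of 552 miRNAs (0%), where 50 (9.06%) had an unadjusted p under 0.05, and DESeq2 also called 0, with 41 unadjusted. Since the interval ends at a fold of 1.30, a rise of hsa-miR-146a-5p beyond that size lies outside it.

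Without control replicate 3, hsa-miR-146a-5p was higher in the overexpression group by a log2 fold change of 0.26 with a standard error of 0.066 (95% interval 0.13 to 0.39; adjusted p = 0.00501 from edgeR), a fold of 1.20. The 2 remaining control samples had 3498 ± 104 TPM (SD, n = 2), and 3 of 3 overexpression samples lay above both. After TMM scaling the groups then did not overlap for 216 of 565 miRNAs (38.2%), 109 of them (19.3%) with the overexpression samples higher. The call of hsa-miR-146a-5p belongs to a fit that called 56 of 565 miRNAs (9.91%), 18 of them (3.19%) higher. With the library size alone in place of TMM factors, a setting added after the values were seen, the log2 fold change without that sample was 0.19 (adjusted p = 0.0354 from edgeR), and 57 of 565 miRNAs (10.1%) were called. With all 6 samples and no TMM factors the log2 fold change of hsa-miR-146a-5p was 0.054 (adjusted p = 0.847 from edgeR). The median over all miRNAs was -0.11 in that fit, against 0.0038 with TMM factors. What set control replicate 3 apart was not tested.

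**Figure D2:**
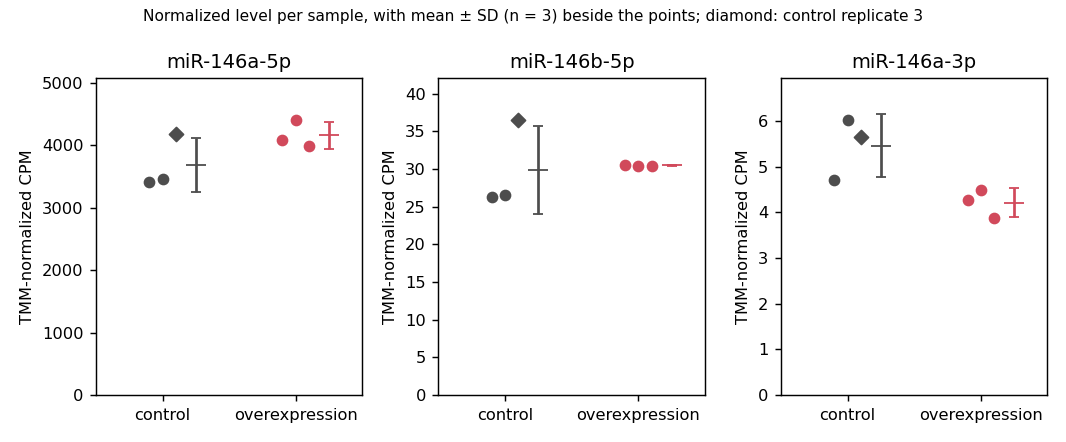
TMM-normalized CPM of miR-146a-5p, miR-146b-5p and miR-146a-3p in each sample, with the group mean ± SD (n = 3) beside the points and control replicate 3 drawn as a diamond. For both 5p products control replicates 1 and 2 lie below the overexpression samples and control replicate 3 does not, whereas for miR-146a-3p all 3 controls lie above all 3 overexpression samples.

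hsa-miR-146b-5p, which carries the same seed, had 243, 237 and 244 counts in the overexpression libraries 1 to 3 and 285, 238 and 284 counts in the control libraries 1 to 3. Its level was 30.5, 28.0 and 29.4 TPM in the overexpression samples and 26.4, 27.4 and 39.7 TPM in the controls. As for hsa-miR-146a-5p, the lowest samples were control replicates 1 and 2 and the highest was control replicate 3. The mean was 29.3 ± 1.24 TPM (SD, n = 3) with hsa_circ_0098181 and 31.2 ± 7.42 TPM (SD, n = 3) with the control plasmid. Here counting error was 5.92% to 6.50% per sample, which is larger than the coefficient of variation of 4.24% among the overexpression samples and smaller than that of 23.8% among the controls.

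The log2 fold change of hsa-miR-146b-5p was 0.038 with a standard error of 0.14 (95% interval -0.27 to 0.34; adjusted p = 0.921 from edgeR). Its direction was not stable, since it was -0.083 without TMM factors and 0.19 without control replicate 3, with an adjusted p of 0.847 and 0.408 from edgeR. The summed counts of both 5p products do not depend on how reads without bases 18 to 21 were divided between them. For this sum the log2 fold change was 0.17 (standard error 0.093, adjusted p = 0.58 from edgeR), and it was 0.26 without control replicate 3 (adjusted p = 0.00342 from edgeR), close to the values of hsa-miR-146a-5p, which holds 99.2% of these reads.

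**Figure D3:**
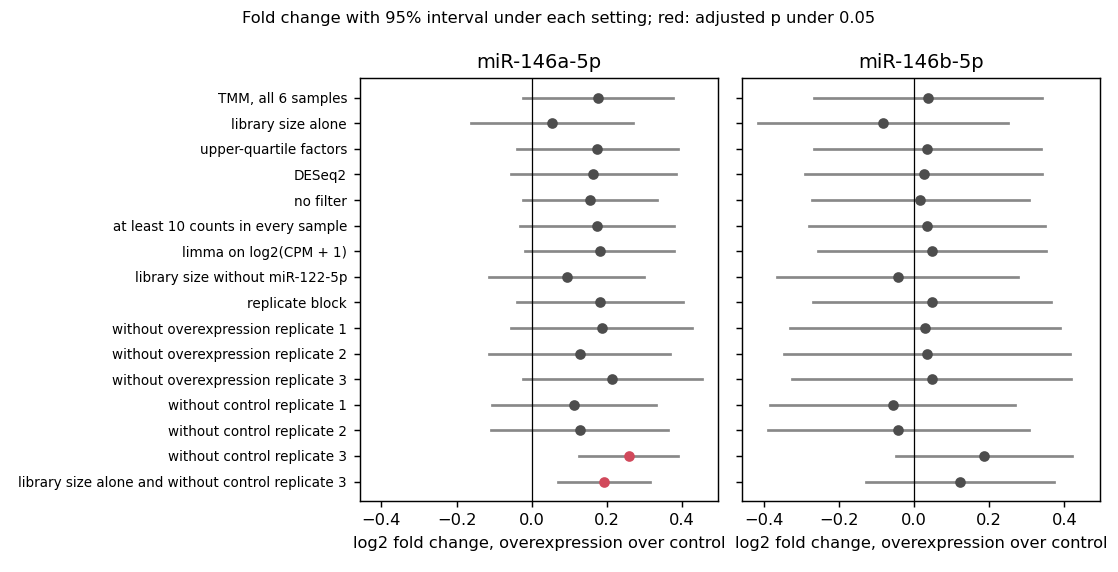
Log2 fold change (overexpression over control) of miR-146a-5p and miR-146b-5p with its 95% interval, for the TMM fit of all 6 samples in the top line and for 15 other settings below it. The miR-146a-5p values lie between 0.054 and 0.26 and only the 2 fits without control replicate 3 have an adjusted p under 0.05, whereas the miR-146b-5p values fall on both sides of 0.

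The share of each paralog was read within each library. hsa-miR-146b-5p took 0.743%, 0.684% and 0.756% of the miR-146 5p reads in the overexpression samples 1 to 3 and 0.766%, 0.762% and 0.865% in the controls 1 to 3. The groups did not overlap, with overexpression replicate 3 next to control replicate 2. The 95% exact binomial intervals of these 2 samples, which cover counting error only, ran from 0.664% to 0.856% in overexpression replicate 3 and from 0.669% to 0.865% in control replicate 2. The log2 ratio of hsa-miR-146b-5p to hsa-miR-146a-5p was -7.09 ± 0.077 (SD, n = 3) with hsa_circ_0098181 and -6.96 ± 0.10 (SD, n = 3) with the control plasmid. The difference of -0.13 had a p of 0.1 in a two-sided exact permutation test, which is the smallest p that 3 samples against 3 allow. How often other pairs of miRNAs had ratios without overlap was not computed. Without control replicate 3 the difference was -0.071, and over all fits with a sample left out it was -0.16 to -0.071.

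The samples had another order for the 3p product of miR-146a. hsa-miR-146a-3p, which is not among the 4 members and pairs with hsa-miR-146a-5p in the precursor, had 34, 35 and 31 counts in the overexpression libraries 1 to 3 and 51, 54 and 44 counts in the control libraries 1 to 3. Its level was 4.26, 4.13 and 3.74 TPM with hsa_circ_0098181 and 4.73, 6.22 and 6.16 TPM with the control plasmid. All overexpression samples lay below all control samples, control replicate 3 included, in a table where 85 of 552 miRNAs (15.4%) had groups without overlap after TMM scaling. The log2 fold change was -0.37 (standard error 0.21, adjusted p = 0.598 from edgeR) and did not pass the test, nor did it without control replicate 3 (-0.36, adjusted p = 0.463 from edgeR).

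The balance of the products of the miR-146a precursor was computed after these values were seen. A single 3p read was counted for every 955, 983 and 1033 reads of the 5p product in the overexpression samples 1 to 3 and for every 724, 574 and 740 reads in the controls 1 to 3. The ratio, which does not depend on library size or scaling, was thus higher in every overexpression sample than in any control, by 0.55 on the log2 scale (9.93 ± 0.057 against 9.38 ± 0.20, SD, n = 3 each; two-sided exact permutation test, p = 0.1, the smallest possible). Without control replicate 3 the difference was 0.61, and over all fits that left out a sample it was 0.43 to 0.61. The 3p product made up 0.101% of the miR-146a reads in the overexpression libraries together (100 of 98988, 95% exact binomial interval 0.0822% to 0.123%) and 0.148% in the control libraries together (149 of 100635, 0.125% to 0.174%), where the intervals cover counting error only.

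Ratios without overlap between the groups were not rare. Of 135 precursors with both products tested, 26 (19.3%) had such a ratio of 5p to 3p, 13 of them (9.63%) with the higher ratio in the overexpression group. Without control replicate 3 these were 52 of 139 (37.4%). miR-146a ranked 6 of 135 by its signed difference and 11 by its size, and ranked 3 by the excess of 5p over 3p. For all 135 precursors the median difference was -0.033, with 66 above 0.

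**Figure D4:**
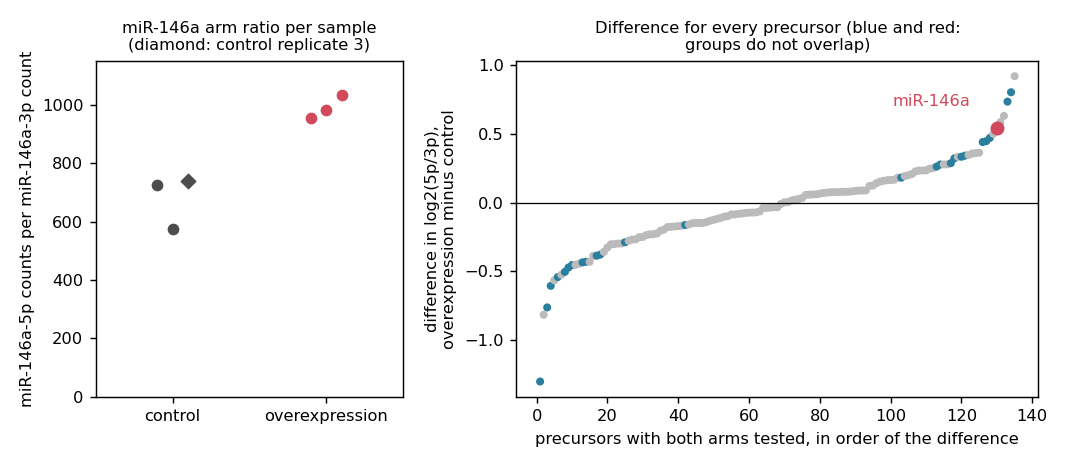
Left, counts of miR-146a-5p per count of miR-146a-3p in each sample, with control replicate 3 as a diamond. Right, the difference in log2(5p/3p) between the groups for 135 precursors in rising order, where 26 precursors without overlap between the groups are drawn in blue or, for miR-146a at 0.55, in red.

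hsa-miR-146b-3p, the passenger product of the miR-146b precursor, did not pass the filter on low counts and was not tested. It had 1, 1 and 2 counts in the overexpression libraries 1 to 3 and 4, 1 and 1 counts in the control libraries 1 to 3. Together these were 4 counts in 24736755 and 6 counts in 26608307, a ratio of 0.717 (-0.48 on the log2 scale) with a 95% counting interval of 0.149 to 3.02. A difference within this interval was not detectable at this depth. The log2 ratio of hsa-miR-146b-5p to hsa-miR-146b-3p was 7.09 ± 0.41 (SD, n = 3) with hsa_circ_0098181 and 6.96 ± 0.85 (SD, n = 3) with the control plasmid (two-sided exact permutation test, p = 0.9).

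hsa-miR-155-5p, the repressor of SOCS1, had 5, 6 and 3 counts in the overexpression libraries 1 to 3 and 2, 5 and 3 counts in the control libraries 1 to 3, and did not pass the filter either. The samples overlapped, with 0.627, 0.708 and 0.362 TPM with hsa_circ_0098181 and 0.185, 0.576 and 0.420 TPM with the control plasmid. Over all 6 libraries it had 24 counts in 51345062, a level of 0.467 TPM with a 95% Poisson interval of 0.299 to 0.695. The ratio of the overexpression to the control libraries was 1.51 (0.59 on the log2 scale) with a 95% counting interval of 0.622 to 3.79, which compares these libraries and leaves both a fall and a 3.79-fold rise within the error. hsa-miR-155-3p had 0 counts in all libraries, which allows a level of up to 0.0584 TPM over the 6 libraries together (3 counts of the total). These intervals and the limit cover counting error only.

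The miRNAs with the most similar pattern over the samples differed between the paralogs. By Pearson's r of log2 normalized CPM over the 6 samples, the miRNAs most like hsa-miR-146a-5p among 550 were miR-500a-3p (r = 0.944, Spearman's rho 0.943), miR-30d-5p (r = 0.938, rho 0.886) and miR-181a-2-3p (r = 0.932, rho 0.829). Those most like hsa-miR-146b-5p were miR-181a-5p (r = 0.976, rho 0.943), miR-3176 (r = 0.975, rho 1) and miR-625-5p (r = 0.967, rho 1). For miR-30d-5p and for all 3 of the second list the highest normalized level was that of control replicate 3. Between the paralogs themselves r was 0.780 and rho 0.657. These values describe 6 shared libraries in 2 groups, they are the highest of many, and they carry no test.

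Other miRNAs tied to NF-kB, Toll-like receptor or interferon signalling were read from a list of 17, of which 14 passed the filter and hsa-miR-10a-5p, hsa-miR-147b and hsa-miR-212-3p did not, with 11, 51 and 33 counts in all. edgeR called 0 of the 14 with all 6 samples, against 0 of 552 miRNAs, and 5 had an unadjusted p under 0.05, with 50 of 552 (9.06%) among all miRNAs. The median log2 fold change was 0.094 over the list, with 10 higher and 4 lower, and 0.0038 over all miRNAs tested. This split rested on the scaling, since without TMM factors 6 were higher and 8 lower, with a median of -0.023 over the list and -0.11 over all miRNAs.

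The smallest unadjusted p of the list belonged to miR-29b-3p, which is known to target interferon-gamma. Its level was 1563 ± 177 TPM (SD, n = 3) with hsa_circ_0098181 and 2224 ± 233 TPM (SD, n = 3) with the control plasmid, with a log2 fold change of -0.40 (adjusted p = 0.295 from edgeR). It came under the threshold without TMM factors (-0.51, adjusted p = 0.0381 from edgeR) and when low counts were kept (-0.42, adjusted p = 0.00982 from edgeR). miR-125b-5p, which is known to target TNF mRNA, had 8013 ± 435 TPM against 7393 ± 585 TPM (SD, n = 3 each) and a log2 fold change of 0.24 (adjusted p = 0.314 from edgeR). For miR-16-5p, miR-132-3p and miR-199a-5p the log2 fold changes were 0.14, 0.33 and -0.47, with adjusted p of 0.421, 0.421 and 0.539 from edgeR. miR-21-5p, which NF-kB and STAT3 are known to induce, was near the top of all libraries with 54488 ± 474 TPM against 54216 ± 3514 TPM (SD, n = 3 each) and a log2 fold change of 0.13 (adjusted p = 0.562 from edgeR).

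Without control replicate 3, 4 of the 15 miRNAs of the list that then passed the filter had an adjusted p under 0.05, where 56 of 565 (9.91%) did among all miRNAs. Lower were miR-29b-3p (log2 fold change -0.51, adjusted p = 8.80e-07 from edgeR), miR-301a-3p (-0.56, adjusted p = 4.16e-05 from edgeR) and miR-30b-5p (-0.28, adjusted p = 0.0128 from edgeR). miR-125b-5p was higher (0.25, adjusted p = 0.00606 from edgeR), as was hsa-miR-146a-5p in the same fit. The list median was 0.12 in this fit and -0.0013 over all miRNAs, and the list did not move in a single direction.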

How the data were processed

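The miRNA libraries of 6 Huh7 samples were analysed, grouped by the sample titles. The authors deposited raw counts of reads for each mature miRNA. The TPM values deposited beside them equal the count scaled to a common total in each sample, with no correction for length. The submitters' processing notes name hg38, Bowtie, TopHat and TopHat2 2.0.9 without their roles. The miRNA annotation, trimming and handling of reads matching several miRNAs are not given in the sources used here.

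The groups were compared in edgeR 4.0.16 under R 4.3.3 (filterByExpr with a minimum count of 10 and a minimum total of 15, TMM factors, quasi-likelihood test, two-sided, Benjamini-Hochberg adjustment over all miRNAs, threshold 0.05). The alternatives used DESeq2 1.42.0, limma 3.58.1 on log2 of CPM with 1 added, other scalings and filters, a replicate block, and leaving out samples. Ratios had 0.5 added to each count and a two-sided exact permutation test. Library totals were 7144798 to 10786295 counts.

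The members and lists were chosen with earlier results of these data known. Named were the members, the other products of their precursors, miRNAs with the same seed, the 3 miRNAs most like each tested member, marker miRNAs, and from a list on innate immunity up to 6 by the smallest unadjusted p besides those not tested. miR-30b-5p and miR-301a-3p were named after their values were seen, as was the ratio of the miR-146a products.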

Additional observations from a re-analysis of the deposited data

How the results depend on the processing

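The log2 fold change of hsa-miR-146a-5p, 0.18, stayed above 0 in 15 of 15 alternatives, from 0.054 to 0.26. It came under the threshold without control replicate 3 (0.26, adjusted p = 0.00501 from edgeR; 0.11 to 0.26 with a sample left out) and with the library size alone and without control replicate 3 (0.19), and over the 13 alternatives that keep that sample the adjusted p was 0.543 to 0.865. The summed 5p products did the same, with 0.26 (0.11 to 0.26 with a sample left out) and 0.19. The log2 fold change of hsa-miR-146b-5p turned to -0.083 with the library size alone, -0.044 with the library size without miR-122-5p, -0.056 without control replicate 1 and -0.042 without control replicate 2, and was -0.056 to 0.19 with a sample left out, with an adjusted p of at least 0.408. The cause was not tested. Without a filter, hsa-miR-146b-3p had -0.34 and hsa-miR-155-5p 0.65 (adjusted p = 0.935 and 0.775 from edgeR), and neither passed any other filter.

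At an adjusted p under 0.05 the count of miRNAs, 0 of 552, was 3 with the library size alone, 6 without a filter, 0 to 56 with a sample left out (56 without control replicate 3) and 57 with the library size alone and without control replicate 3. For the innate immunity list, 0 became 1, 1, 0 to 4 and 4 under the same settings, where the 1 was miR-29b-3p both times. The difference of the log2 ratio of hsa-miR-146b-5p to hsa-miR-146b-3p, 0.13, was -0.028 with 5 added to each count and -0.35 to 0.44 with a sample left out (-0.35 without control replicate 1). The 3p product had 1 to 4 counts a sample, and the cause was not tested.

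Same-numbered samples did not deviate together, with correlations of -0.21, 0.19 and 0.12 for replicates 1 to 3 over 308 miRNAs, so that the numbers were not taken to pair the samples. With the replicate block, the log2 fold changes were 0.18 for hsa-miR-146a-5p, 0.048 for hsa-miR-146b-5p and 0.18 for their sum, 0 miRNAs were called (42 unadjusted), and the ratios of hsa-miR-146b-5p to hsa-miR-146a-5p and of hsa-miR-146a-5p to hsa-miR-146a-3p differed by -0.13 and 0.55. It changed no call. At this depth hsa-miR-155-5p and hsa-miR-146b-3p had 24 and 10 counts over all libraries.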
